A study of Mus musculus with 12 samples.

Results

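Cell cycle and DNA replication genes were examined as a list of 58 genes that encode the machinery of DNA replication, the cyclins and kinases that time the cycle, and the proteins of chromosome condensation, the spindle and cytokinesis. Their rows were found by gene symbol, and the list was drawn up with earlier results of these data known. All 58 were present in the table of regulatory T cells (Treg), which lists 10405 genes, and 46 of 58 in the table of conventional T cells (Tcon), which lists 9886. RNA was sequenced in 12 libraries of CD4+ T cells. All mice were of the strain B6.Cg-Foxp3tm2Tch/J (FOXP3-IRES-GFP), in which GFP is made from the Foxp3 locus, and no age or sex is given in the sources used here. They had received either vehicle or a stapled helical peptide directed at FOXP3, the Treg transcription factor. The peptide, SAH-FOXP3(229-259)C (SAH below), was given at 25 mg/kg as 1 intraperitoneal injection a day for 2 days. The vehicle libraries carry DMSO in their names.

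Each cell type has 6 libraries: library 1 is lymph node vehicle, libraries 2 and 3 are lymph node SAH, library 4 is spleen vehicle, and libraries 5 and 6 are spleen SAH. Each organ therefore has 1 vehicle library per cell type. Nothing in the labels says whether the libraries came from separate mice, so a p-value speaks only of the spread between libraries, which may be technical. Between 36442420 and 48888678 reads per library fell in listed genes, and values are in CPM, read counts scaled by the authors. Column totals over listed genes reached 1.02143e+06, so the scaling was not by the total reads of a library alone. As a check on the sort, Foxp3 lay between 655 and 726 CPM in the 6 Treg libraries and between 19.6 and 24.9 CPM in the 6 libraries of Tcon, which the labels call naive. Markers of other cells moved with organ: Jchain, a plasma cell gene, and Lyz2, a myeloid gene, were at 1.33 CPM or below in all lymph node libraries of both cell types and between 18.1 and 119.9 CPM in the spleen libraries.

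A dividing cell passes from G1 into S phase when D- and E-type cyclins release E2F transcription factors, which switch on the genes of origin licensing, the replication fork and nucleotide supply. In G2 and mitosis another group of genes, which includes cyclin B, Aurora and Polo-like kinases, kinesins and condensins, is switched on by MYB and FOXM1 acting through the CHR element, often beside CCAAT boxes. Resting naive T cells sit outside the cycle, while part of the Treg pool divides at steady state in response to self antigens and IL-2.

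The sequence before a few of these genes is shown with the matches to E2F, CHR and CCAAT letters found in it. Windows of 250 bases before the RefSeq start (GRCm38.p6) were found for 46 of 58 members, using the first window where a gene had more than 1, and only these 250 bases were searched. The E2F letters searched were TTTCCCGC, TTTGGCGC, TTTCGCGC and TTTGCCGC, the CHR letters were TTTGAA and TTTAAA, and the third motif was CCAAT. Both strands were searched. An E2F match stood in 6 of 46 member windows (13.0%) and in 1.91% of the windows of all 27025 genes. A CHR match stood in 21 of 46 (45.7%) and in 25.5% of all. CCAAT stood in 34 of 46 (73.9%) and in 34.5% of all. Of the 6 members with an E2F match, 4 were among the 15 licensing, helicase, fork and nucleotide genes with a window, and 1 was among the 19 mitotic, anaphase and spindle genes. Those 19 held a CHR match in 10 windows and CCAAT in 16. A match is only a run of letters, and no binding was measured. In 7 members RNA was called lower in spleen than in lymph node in Treg and the organ difference was called different from that in Tcon, and 3 of these are shown. Of the other 4, Stmn1 had no window, the windows of E2f1 and Ncapd2 reach into the GENCODE gene, and the stretch of Gsg2, whose values are uncertain, held 0 matches and is not shown. They run 5′ to 3′ on the strand of the gene and end before both the RefSeq and the GENCODE start. Capitals mark these letters on either strand: in Mcm5 1 E2F match and then 2 of CCAAT, in Uhrf1 1 of CCAAT alone, and in Kif11 1 of CCAAT and then 1 of CHR. Mcm5 lies at chr8:75109359-75109508 (+), Uhrf1 at chr17:56303187-56303320 (+) and Kif11 at chr19:37376232-37376381 (+).
Mcm5: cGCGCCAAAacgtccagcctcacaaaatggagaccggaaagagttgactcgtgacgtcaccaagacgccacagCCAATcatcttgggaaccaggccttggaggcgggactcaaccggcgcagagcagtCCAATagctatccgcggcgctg
Uhrf1: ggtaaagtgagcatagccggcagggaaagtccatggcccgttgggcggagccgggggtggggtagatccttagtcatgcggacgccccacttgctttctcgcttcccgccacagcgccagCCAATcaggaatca
Kif11: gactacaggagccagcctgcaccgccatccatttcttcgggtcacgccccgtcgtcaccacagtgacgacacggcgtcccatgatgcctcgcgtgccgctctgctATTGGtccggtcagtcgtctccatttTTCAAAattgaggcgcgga

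The members stood at higher CPM in Treg than in Tcon. The 2 tables were normalized separately by the authors, so these levels are a description and were not tested. The median ratio of the Treg mean to the Tcon mean was 1.72 over the 46 members in both tables and 1.06 over all 9784 genes in both. All 6 Treg libraries lay above all 6 Tcon libraries for 29 of 46 members, against 33.1% of all genes. The reverse held for 1 member, Pcna. The 12 members that the Tcon table does not list were not analysed there: Gins2, Ccnb1, Ccnb2, Cdk1, Aurkb, Bub1, Ube2c, Tpx2, Cenpf, Nusap1, Hmmr and Ncapg. Every gene of either table reached 1 CPM in at least 3 libraries. In these bulk libraries, fewer cells in cycle and less RNA per cell cannot be told apart.

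The proliferation marker Mki67 averaged 130 ± 13.8 CPM in Treg (SD, n = 6) and 21.6 ± 10.6 CPM in Tcon (SD, n = 6), a ratio of 6.01. The thymidine kinase gene Tk1 had the highest ratio, 6.59, at 11.9 ± 0.813 CPM in Treg and 1.81 ± 0.604 in Tcon (SD, n = 6 each). The ratio was 4.36 for Ccna2, which encodes the cyclin of S phase and G2. It was 3.76 for the kinetochore motor gene Cenpe, 3.68 for the spindle motor gene Kif11 and 3.36 for Uhrf1, which encodes the protein that guides maintenance methylation to replicated DNA. By role, all Treg libraries lay above all Tcon libraries for 5 of 9 licensing and helicase genes (median ratio 1.33), 5 of 7 fork and nucleotide genes (2.32), 0 of 4 G1 cyclins (1.14) and 2 of 4 transcription factor and checkpoint kinase genes (1.93). They did so for 4 of 5 mitotic cyclin and kinase genes (3.60), 1 of 2 anaphase genes (2.14), 5 of 7 spindle and cytokinesis genes (2.22) and 7 of 8 chromosome and lamina genes (1.78). Over all genes in both tables the share was 33.1% and the median ratio 1.06. Differences between these roles were not tested. Pcna, the sliding clamp of the replication fork, went the other way, at 179 to 205 CPM in Treg and 251 to 332 CPM in Tcon.

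Per kilobase of exon, the condensin gene Smc4 was the most abundant member in both cell types, at 252 CPM per kilobase in Treg and 143 in Tcon. The histone gene H2afz followed in Treg at 105 and Pcna in Tcon at 124 CPM per kilobase. The lowest member in Treg on this scale was Cenpf, which encodes a kinetochore protein, at 0.665 CPM per kilobase, and in Tcon it was Tk1 at 0.349. This scale depends on exon length and does not rank members by reads: Cenpf, with 15433 exon bases, stood at 9.02 to 11.2 CPM in Treg. Tk1 stood at 0.868 to 2.57 CPM in Tcon, and 1 read was worth at most 0.0267 CPM.

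**Figure D1:**
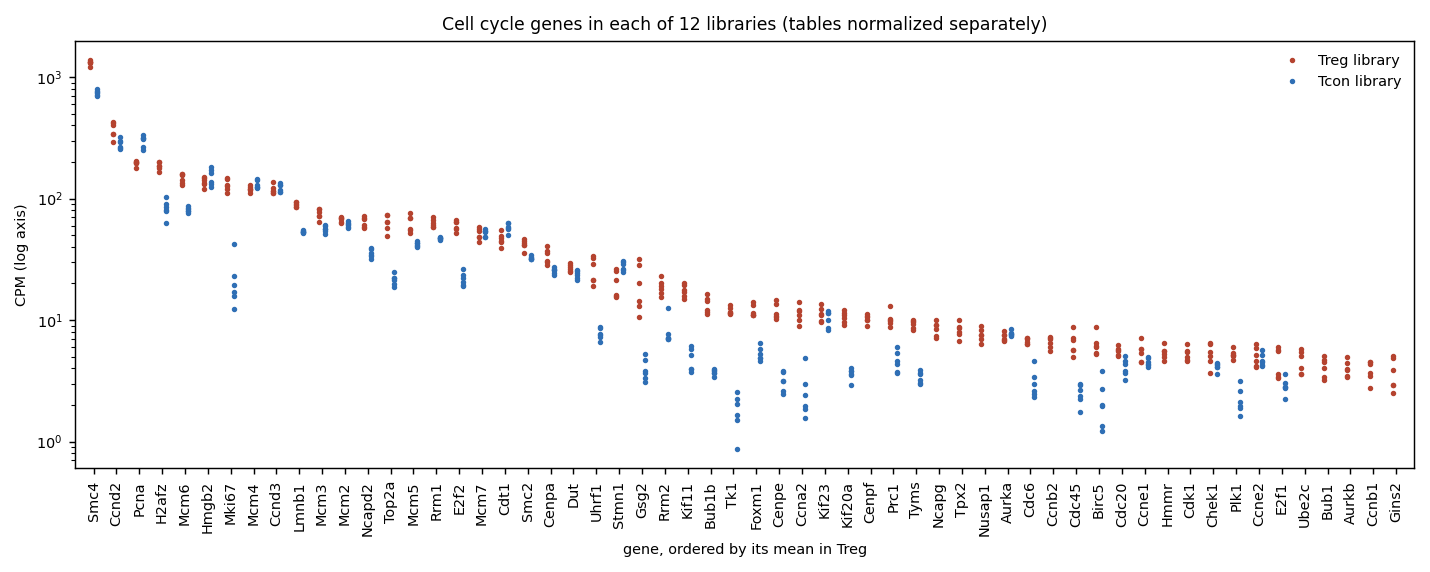
CPM of each member (log axis) in the 6 Treg libraries (red) and, where listed, the 6 Tcon libraries (blue), with 1 point per library and genes ordered by their Treg mean. Mki67, Tk1, Uhrf1 and Kif11 show separate groups of points, and Pcna is the 1 member with all Tcon points above all Treg points.

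Organ was the factor with the most calls among the members in Treg. With treatment as a term in limma on log2(CPM + 1), 19 of 58 members differed between spleen and lymph node at a Benjamini-Hochberg adjusted p below 0.05, and 15 of these were lower in spleen and 4 higher. Over all genes 14.7% were called, 906 higher and 625 lower in spleen, so calls over all genes were more often higher. The median log2 difference, spleen minus lymph node, was -0.11 over the members and -0.003 over all genes. All 3 spleen libraries lay below all 3 lymph node libraries for 21 of 58 members, against 15.1% of all genes, and above them for 4 of 58, against 16.8%. Before adjustment, 25 of 58 members had p below 0.05, against 28.3% of all genes.

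Licensing and helicase genes were the role with the most lower calls, 5 of 10, against 14.7% of all genes called in either direction. Differences between roles were not tested. Mcm5, a subunit of the MCM2-7 helicase, stood at 69.5, 76.4 and 69.5 CPM in the lymph node Treg libraries and at 56.0, 55.6 and 51.6 in the spleen libraries. The organs did not overlap, and Mcm5 was 1.31-fold lower in spleen (log2 -0.39 ± 0.058 SE, limma adjusted p = 0.00036). Gins2, a GINS subunit of the active helicase, stood at 3.88, 4.85 and 5.05 CPM in lymph node and 2.94, 2.93 and 2.50 in spleen, a log2 difference of -0.56. Cdc45, its partner in the same helicase, differed by -0.40, Mcm7 by -0.25 and Mcm3 by -0.22. Cdt1, the licensing factor that loads the MCM ring, went the other way, at 39.0 to 44.4 CPM in lymph node and 47.0 to 55.2 in spleen, a log2 difference of 0.24.

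At the replication fork, Uhrf1 stood at 29.1, 33.4 and 32.4 CPM in lymph node Treg and 21.2, 21.5 and 18.9 CPM in spleen Treg. This was a 1.51-fold lower level in spleen (log2 -0.60 ± 0.075 SE, limma adjusted p = 8.1e-05), with no overlap of the organs. Rrm1, the large subunit of ribonucleotide reductase, was lower by a log2 difference of -0.17. Pcna (0.08), Rrm2 (0.07), Tk1 (-0.11), Tyms (-0.02) and Dut (-0.04) did not pass the test. Among the factors that switch these genes on, E2f1 stood at 5.72, 5.53 and 6.03 CPM in lymph node and 3.43, 3.33 and 3.61 in spleen, without overlap. Its log2 difference was -0.60 ± 0.108 SE (limma adjusted p = 0.0017). Foxm1 (-0.20), E2f2 (-0.12) and the checkpoint kinase gene Chek1 (-0.38) were not called. Of the 4 G1 cyclins, Ccnd2, a D-type cyclin, was called. It stood at 415, 403 and 428 CPM in lymph node and 339, 339 and 294 in spleen (log2 -0.36). Ccnd3, also a D-type cyclin, at 112 to 137 CPM in lymph node and 110 to 122 in spleen, and Ccne1 (-0.26) were not called.

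Of the 10 mitotic cyclin and kinase genes 2 were called lower in spleen Treg, near the 14.7% of all genes called in either direction. Of these 2, 1 was Gsg2, whose values are uncertain. Of the 11 spindle and cytokinesis genes 2 were lower and 1 higher, of the 9 chromosome and lamina genes 2 were lower and 2 higher, and of the 3 anaphase genes 0 were called. Stmn1, which encodes a protein that destabilizes microtubules, stood at 21.3, 25.2 and 26.3 CPM in lymph node and 16.0, 15.8 and 15.4 in spleen. Its 3 spleen values lay below all lymph node values, a 1.51-fold lower level (log2 -0.59 ± 0.078 SE, limma adjusted p = 0.00013). Also lower were Bub1b, a spindle checkpoint gene (-0.35), Top2a, the DNA decatenating enzyme of mitosis (-0.30), Kif11 (-0.24) and the condensin gene Ncapd2 (-0.24). Higher in spleen were Cenpa, the centromeric histone (0.34), the chromatin protein gene Hmgb2 (0.19) and H2afz (0.16). Mki67 (0.03), Ccna2 (-0.10), Ccnb1 (0.19), Cdk1 (-0.11), Birc5 (0.13) and Ube2c (0.17) were not called, and their organs overlapped.

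Of the 19 calls in Treg, 6 held in each of 6 fits that left out 1 library: Mcm5, Uhrf1, Ccnd2, E2f1, Stmn1 and Gsg2. All 19 kept their sign in these fits. The number called fell to 9 without lymph node SAH library 2 and to 12 without lymph node vehicle library 1. Calls over all genes fell in the same fits, from 1531 to 768 and 783. Bub1b and Gins2 were lost without library 2 alone, Mcm3 and Top2a without library 2 or 3, and Mcm7 without library 1 alone. Cenpa and Ncapd2 were lost without vehicle library 1 or 4, Cdt1 and Hmgb2 without 1, 2 or 4, Cdc45 without 2, 3 or 5, and H2afz without 1, 2, 3 or 4. Kif11 held only without library 5, and Rrm1 held in none of these fits.

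In Tcon the limma test with treatment as a term called 3 of 46 members for organ, 2 higher and 1 lower in spleen, against 4.73% of all genes. Hmgb2 was 1.31-fold higher in spleen (log2 0.39 ± 0.061 SE, adjusted p = 0.0041), at 124, 137 and 131 CPM in lymph node and 181, 172 and 162 in spleen, with no overlap. Kif11 was higher by 0.45 on the log2 scale, from 3.95, 3.96 and 3.70 CPM in lymph node to 5.77, 5.12 and 6.08 in spleen. Ccnd2 was lower by a log2 difference of -0.21, from 299, 294 and 319 CPM to 258, 261 and 267. The Hmgb2 call held in each of 6 fits without 1 library. The Kif11 call held only without library 2 or 5, and the Ccnd2 call only without library 2. The number called was 1 without library 3 or 6. Calls over all genes fell in the same fits, from 468 to 215 and 301.

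Before adjustment, 17 of 46 members had p below 0.05 in Tcon, 16 of them higher in spleen, against 17.4% of all genes. All 3 spleen libraries lay above all 3 lymph node libraries for 16 of 46 members, against 10% of all genes, and below them for 1 member, against 9.33%. The median log2 difference was 0.09 over members and -0.002 over all genes. It was 0.13 without lymph node SAH library 2, 0.06 without spleen SAH library 6 and 0.0555 over members with a mean of at least 5 CPM. Mki67 in Tcon stood at 16.9, 15.9 and 12.4 CPM in lymph node and 22.9, 19.6 and 42.0 in spleen, a log2 difference of 0.79 with a 95% interval of 0.29 to 1.30 (adjusted p = 0.086). Ccna2 stood at 1.57, 1.94 and 1.84 CPM in lymph node and 2.95, 2.41 and 4.89 in spleen. Both genes were highest in spleen SAH library 6 and had no overlap between organs.

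**Figure D2:**
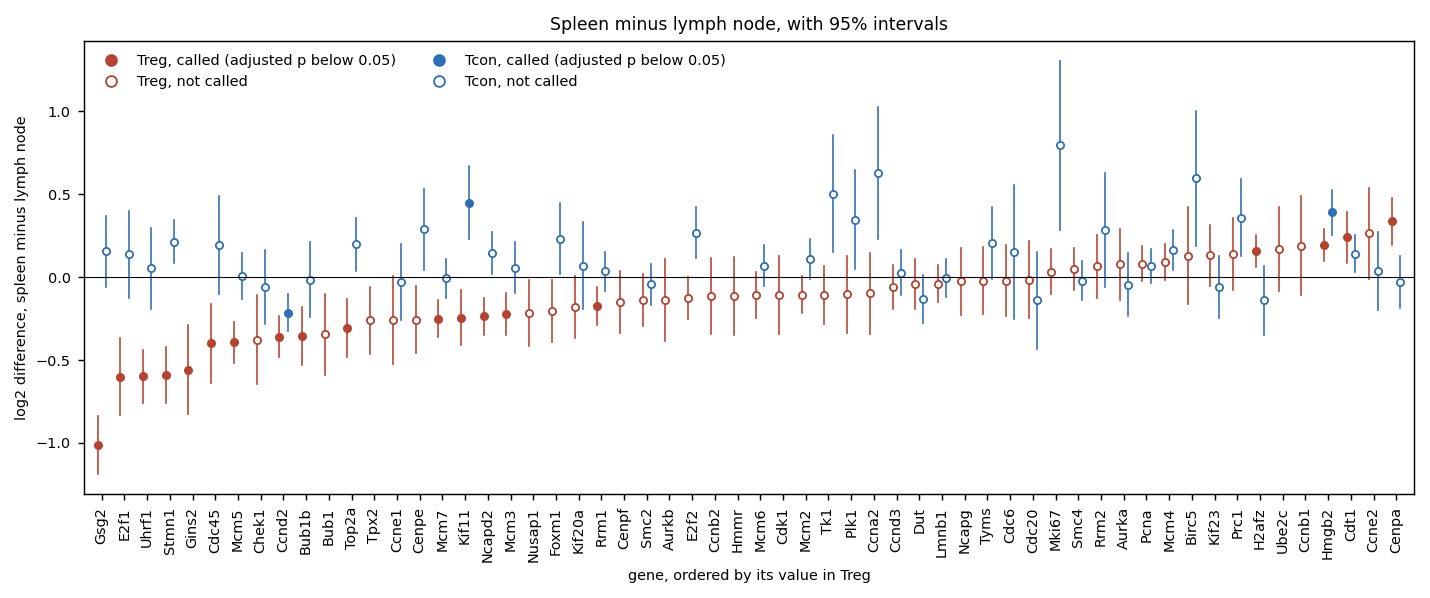
Log2 difference, spleen minus lymph node, of each member in Treg (red) and Tcon (blue), with 95% intervals from limma; filled points are called at an adjusted p below 0.05. Gsg2, E2f1, Uhrf1 and Stmn1 lie at the low end in Treg, while Mki67 and Ccna2 lie highest in Tcon, with wide intervals that were not called.

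The organ difference itself differed between the cell types for 8 of 46 members, all with a lower value in Treg, against 1.46% of all 9784 genes. This was tested as an interaction in 1 limma model of all 12 libraries. In it each table keeps its own level, and the library numbers are not used. The 8 were Gsg2, Stmn1, Kif11, Ncapd2, E2f1, Uhrf1, Mcm5 and E2f2. For Stmn1 the difference of differences was log2 -0.81 ± 0.095 SE (adjusted p = 0.00025): Tcon stood at 26.5, 24.9 and 25.8 CPM in lymph node and 30.8, 29.1 and 30.1 in spleen, without overlap and higher in spleen, while Treg was lower in spleen. For Kif11 it was -0.69 ± 0.118 SE (adjusted p = 0.0065), with Treg lower and Tcon higher in spleen. Uhrf1 in Tcon stood at 7.60, 8.66 and 6.59 CPM in lymph node and 7.66, 7.30 and 8.80 in spleen, overlapping, and its interaction was -0.65. Mcm5 in Tcon ranged from 39.9 to 44.9 CPM with the organs overlapping, and its interaction was -0.40. E2f1 had an interaction of -0.74, the condensin gene Ncapd2 of -0.38 and E2f2 of -0.39.

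Before adjustment, 24 of 46 members had p below 0.05 for this interaction, 22 with a lower value in Treg, against 12.2% of all genes. The median over members was -0.23 and that over all genes -0.003. Of the 46 members, 23 had a negative organ difference in Treg and a positive one in Tcon, 5 the reverse, 9 were negative in both and 9 positive in both. Libraries of the 2 cell types share numbers, and a fit with the library number as a block called 21 of 46 members, against 7.19% of all genes. Of these, 19 had a lower value in Treg and 2 (Cenpa and H2afz) a higher one. The 19 were the 8 above with Mki67, Ccna2, Top2a, Hmgb2, Cdc45, Mcm2, Mcm3, Mcm7, Tk1, Cenpe and Foxm1. Without the block, Gsg2, Stmn1 and Kif11 were called in each of 12 fits that left out 1 library, and the number called ranged from 3 to 11. Ncapd2 was lost without Treg library 1, 3 or 4. E2f1 held only without Treg library 6 or Tcon library 2, 3 or 5, Uhrf1 only without Treg library 4 or Tcon library 2 or 5, Mcm5 only without Tcon library 2 or 6, and E2f2 only without Treg library 6. The number was 3 without Treg library 1 or 3, 4 without Treg library 2 or 4 or Tcon library 1 or 4, and 5 without Treg library 5 or Tcon library 3 or 6. Without library 6 of both cell types it was 5, and with the block as well 16. Over all genes these fits called 121 and 747. In the fits without 1 library, calls over all genes ranged from 79 to 287, beside 143 in the main fit. Markers of plasma cells, of which 3 of 7 are listed in each table, summed to 107 to 128 CPM in lymph node and 215 to 249.9 in spleen in Treg, and to 106 to 136 and 155 to 231 in Tcon. Little of the lymph node sums came from Jchain, whose range is given above. Whether the T cells themselves express the other plasma cell markers was not tested. Myeloid markers, 5 of 9 listed in Treg and 3 of 9 in Tcon, summed to 6.23 to 8.21 and 41.0 to 77.4 CPM in Treg, and to 10.4 to 11.9 and 29.9 to 36.5 in Tcon. Markers of CD8 and natural killer cells, 2 of 6 listed in Treg and 3 of 6 in Tcon, summed to 31.4 to 33.5 CPM in lymph node and 20.9 to 22.0 in spleen in Treg, and to 24.7 to 28.2 and 42.5 to 55.6 in Tcon. Cd8a, Ncr1 and Gzma are listed in neither table. Among them the cytotoxic granule gene Nkg7 had an interaction of -3.69 (limma adjusted p = 1.7e-07), with Treg lower and Tcon higher in spleen. Treg markers, 4 of 4 listed, summed to 3706 to 4219 CPM in lymph node and 3837 to 4163 in spleen in Treg, and to 204 to 208 and 208 to 253 in Tcon. Il2ra, the IL-2 receptor alpha chain, had an interaction of -0.87 (adjusted p = 0.0024), and the myeloid gene Itgam one of 1.27 (adjusted p = 0.00013). With the library number as a block, Jchain, Slc4a1, the Treg marker Ikzf2 and the erythroid gene Gata1 were also called. The organ difference was lower in Treg than in Tcon for Ikzf2 and Gata1, and higher for Jchain and Slc4a1. The part of these cells in the organ differences was not tested.

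**Figure D3:**
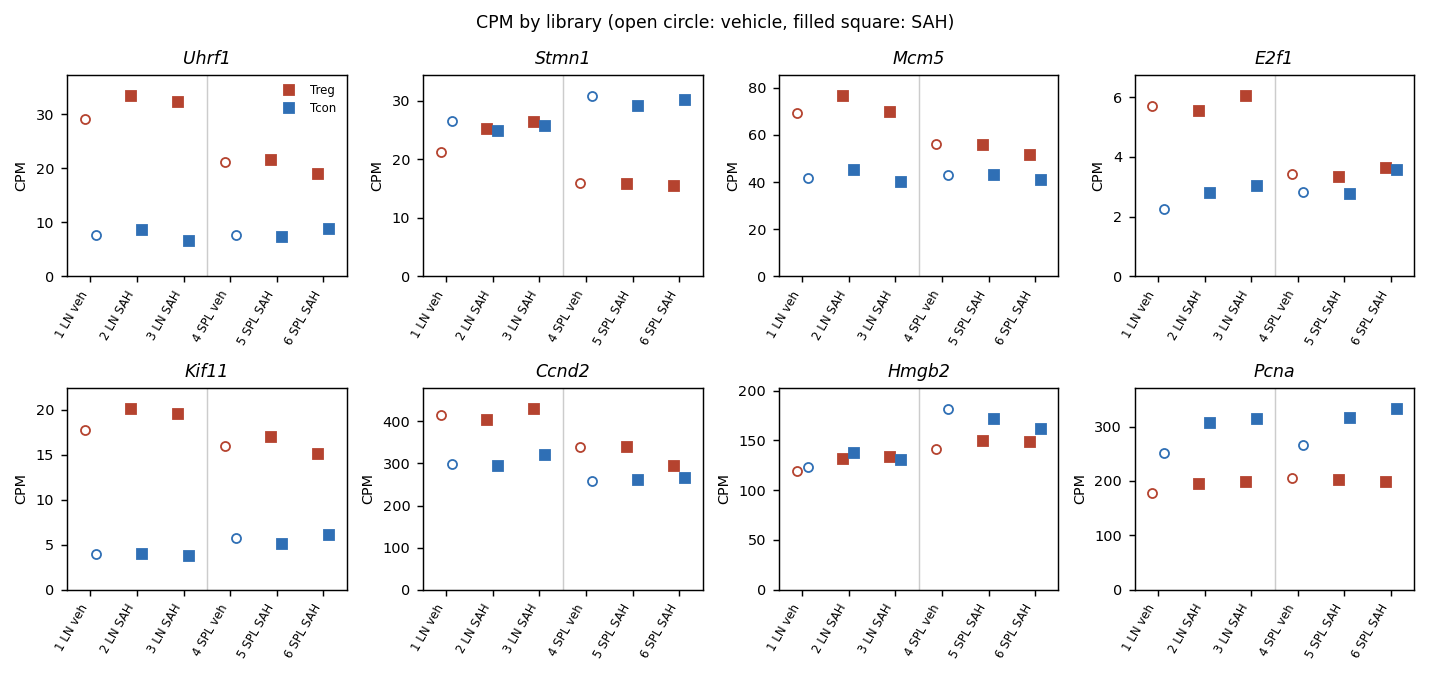
CPM of 8 members by library, in Treg (red) and Tcon (blue); open circles are vehicle, filled squares SAH, and the grey line separates lymph node (left) from spleen (right). Uhrf1, Mcm5, E2f1 and Stmn1 step down from lymph node to spleen in Treg, Hmgb2 steps up in both cell types, and Pcna in Tcon is higher in SAH than in vehicle libraries in both organs.

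Gsg2, called Haspin in the GENCODE annotation, encodes the kinase that phosphorylates histone H3 at mitotic centromeres, and its values are uncertain. It is a single-exon gene on the minus strand (mm10 chr11:73135485-73138294) inside Itgae (chr11:73090583-73147446, plus strand), the gene of the integrin chain CD103. The library kit keeps strand, but whether reads were counted by strand is not given in the sources used here, and without it reads of the 2 genes cannot be told apart. In Treg, Gsg2 stood at 20.2, 28.6, 32.1, 10.7, 14.3 and 13.1 CPM in libraries 1 to 6, while Itgae stood at 141, 213, 228, 52.5, 68.1 and 77.3 CPM. Gsg2 was 13.4% to 21.0% of Itgae in every library. The organ difference of Gsg2 in Treg was log2 -1.01 ± 0.081 SE (limma adjusted p = 1.3e-06). Its interaction with cell type was -1.17. Itgae is not listed in the Tcon table, where Gsg2 ranged from 3.09 to 5.29 CPM. Counts of members given here include Gsg2.

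After the peptide, no member was called in Treg. The limma test with organ as a term called 0 of 58 members at an adjusted p below 0.05, against 0.202% of all genes. Before adjustment 9 of 58 had p below 0.05, all higher with SAH, against 7.04% of all genes: Gsg2, Mki67, E2f2, Ube2c, Rrm2, Ncapg, Kif23, H2afz and Hmgb2. The fitted difference was positive for 47 of 58 members and negative for 11, with a median log2 of 0.10, against 0.003 over all genes. Leaving out lymph node vehicle library 1 gave a median of 0.02, and leaving out spleen vehicle library 4 gave 0.15. The count of calls was 2 without spleen SAH library 5 and 1 without spleen SAH library 6. Over all genes these fits called 56 and 95, beside 21 in the main fit. Among the 58, all 4 SAH libraries lay above the vehicle library of their organ for 22, against 13.4% of all genes, and below it for 0, against 11.7%. Both lymph node SAH libraries lay above vehicle for 46 of 58, against 36.8% of all genes, and both spleen SAH libraries for 25 of 58, against 30.4%. Each of these shares rests on 1 vehicle library per organ.

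Mki67 in Treg stood at 111 CPM in lymph node vehicle and 130 and 144 with SAH, and at 120 in spleen vehicle and 126 and 147 with SAH. Its log2 difference was 0.24 with a 95% interval of 0.09 to 0.38 (adjusted p = 0.35). Ube2c, the ubiquitin-conjugating enzyme of the anaphase-promoting complex, stood at 3.62 CPM against 5.09 and 4.05 in lymph node and at 3.62 against 5.48 and 5.74 in spleen (log2 0.39, adjusted p = 0.45). Rrm2, the small subunit of ribonucleotide reductase, stood at 15.5 against 19.0 and 20.4, and at 16.8 against 17.9 and 22.9 CPM (log2 0.29, adjusted p = 0.45). All 3 had 4 of 4 SAH libraries above vehicle, and none passed the test. Gsg2 had the smallest adjusted p, 0.060, at log2 0.44. The lowest values were those of Hmmr, which encodes a spindle protein (-0.15), Ccne2, an E-type cyclin (-0.06), Ccnd2 (-0.05) and the condensin gene Smc2 (-0.04). By role, the median log2 difference was 0.03 for the 10 licensing and helicase genes, 0.10 for the 7 fork and nucleotide genes, 0.14 for the 10 mitotic cyclins and kinases and 0.15 for the 11 spindle and cytokinesis genes. In the authors' deposited table, 1 of 58 members, Gsg2, had a false discovery rate below 0.05 in Treg, with a log2 fold change of 0.48.

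**Figure D4:**
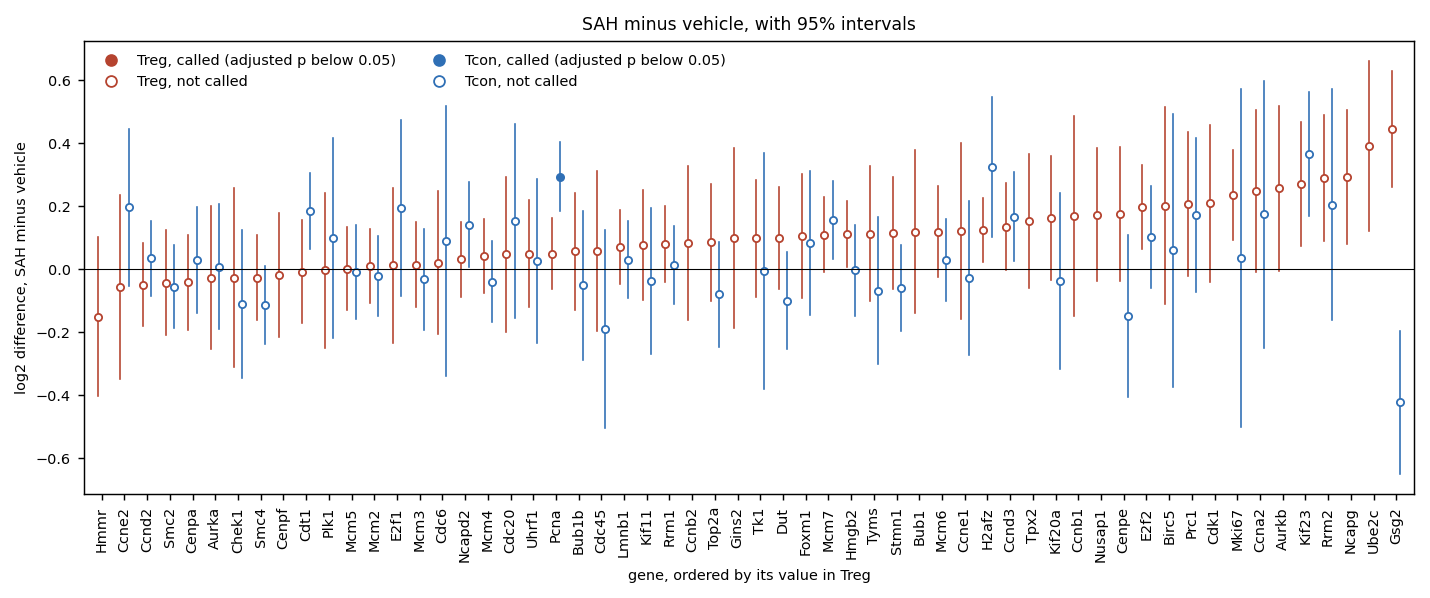
Log2 difference, SAH minus vehicle with organ as a term, of each member in Treg (red) and Tcon (blue), with 95% intervals; filled points are called. Pcna in Tcon is the single filled point, and most Treg points lie above 0 with intervals that cross it.

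In Tcon, 1 of 46 members was called after SAH, against 1.04% of all genes. Pcna rose 1.23-fold (log2 0.29 ± 0.050 SE, 95% interval 0.18 to 0.41, limma adjusted p = 0.027). It stood at 251 CPM in lymph node vehicle and 307 and 313 with SAH, and at 265 in spleen vehicle and 316 and 332 with SAH, so all 4 SAH libraries lay above both vehicle libraries. In Treg, Pcna stood at 179 against 195 and 199 CPM in lymph node and at 205 against 202 and 198 in spleen. The Tcon call was lost in each fit that left out library 1, 3, 4, 5 or 6, with an adjusted p of up to 0.22, and without the organ term. The log2 difference stayed between 0.28 and 0.31 in those fits.

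Other members in Tcon did not pass. Kif23, a kinesin of the midzone in cytokinesis, stood at 8.53 against 11.4 and 11.4 CPM in lymph node and 8.27 against 9.92 and 11.8 in spleen (log2 0.37, adjusted p = 0.089). Gsg2 had a log2 difference of -0.42 (adjusted p = 0.088). Before adjustment 8 of 46 members had p below 0.05, 7 of them higher, against 14.1% of all genes. The median over members was 0.03 (0.00028 without library 6) and that over all genes -0.003. SAH libraries were above vehicle in 4 of 4 for 8 of 46 members, against 16.6% of all genes, and below in 4 of 4 for 6, against 16.7%. Both lymph node SAH libraries lay above vehicle for 16 of 46, against 33.7%, and both spleen SAH libraries for 18 of 46, against 36.5%. These shares in Tcon were near those of all genes. In the authors' deposited table, 2 of 46 members had a false discovery rate below 0.05 in Tcon, Pcna with a log2 fold change of 0.30 and Gsg2 with -0.52.

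Differences in the SAH effect between groups were tested directly. Within a cell type, the fit for a difference between organs had 2 residual degrees of freedom, from the SAH pairs alone. The 1 vehicle library per organ gave no spread, so few calls there do not show equal effects in the organs. Between spleen and lymph node, 0 of 58 members were called in Treg by limma, against 0.00961% of all genes, and 1 of 58 had p below 0.05 before adjustment, against 2.41%. In Tcon 0 of 46 were called, against 0% of all genes, and 2 of 46 had p below 0.05 before adjustment, against 5.1%. The count in Tcon was 1 without spleen SAH library 5. Between Treg and Tcon, 0 of 46 were called, against 0% of all genes, and 3 of 46 had p below 0.05 before adjustment, against 4.63%. Gsg2 had the largest difference, with Treg above Tcon by log2 0.87 (adjusted p = 0.062). With the library number as a block Gsg2 was called (adjusted p = 0.0025), the 1 member among 0.777% of all genes, as was the plasma cell marker Jchain, whose part was not tested. It was also called with a pseudocount of 2, and without Tcon library 2. With the block and without library 6 of both cell types, 2 members were called, beside 101 over all genes. Pcna differed by log2 -0.24 (adjusted p = 0.66, 95% interval -0.39 to -0.09). With the library number as a block in limma, its adjusted p was 0.054 (95% interval -0.36 to -0.13), just short of a call.

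Spleen SAH library 6 stood apart from its pair, library 5, in both cell types. Slc4a1, the anion exchanger of red cells, stood in Treg at 12.1 CPM in library 4, 8.41 in library 5 and 109.7 in library 6, and in Tcon at 4.21, 3.38 and 50.0 CPM. In lymph node it lay between 0 and 0.07 CPM. Alas2, the heme synthesis enzyme of red cell precursors, stood at 28.8 CPM in Treg library 6 and 2.31 in library 5. Most red cell markers are not listed: 4 of 10 are in the Treg table and 3 of 10 in the Tcon table. Their summed level was 182 to 194 CPM in Treg lymph node, 192 to 336 in Treg spleen, 193 to 223 in Tcon lymph node and 171 to 266 in Tcon spleen. In lymph node these sums came almost wholly from markers other than Slc4a1. Whether the T cells themselves express those markers was not tested.

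The same library held the highest values of several cycling genes. In Tcon, 6 of 46 members were more than 1.25-fold higher in library 6 than in library 5 on the CPM + 1 scale, against 1.5% of all genes: Mki67 (42.0 against 19.6 CPM), Ccna2 (4.89 against 2.41), Rrm2 (12.6 against 7.74), Birc5, Cdc6 and Cdc20. In Treg it was 5 of 58, against 3.04% of all genes: Rrm2, Ccna2, Prc1, Birc5 and Ccnb2. The lymph node SAH pair, library 3 over library 2, gave 0 of 58 members in Treg, against 1.03% of all genes, and 1 of 46 in Tcon, against 2.27%. Over all members, library 6 was higher than library 5 for 34 of 46 in Tcon, against 48.8% of all genes. In Treg it was higher for 31 of 58, against 49.8% of all genes. The median log2 difference, library 6 minus library 5, was 0.08 over members in Tcon and 0.002 in Treg. Of the 10 mitotic cyclin and kinase genes in Treg, 3 were higher in library 6, with a median of -0.11. Dividing red cell precursors express cell cycle genes, and their part in the values of library 6 was not tested. Without library 6 of Treg, the members' median after SAH was 0.10 and 20 members were called for organ. Over all genes 1830 were called for organ in that fit, beside 1531 in the main fit.

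**Figure D5:**
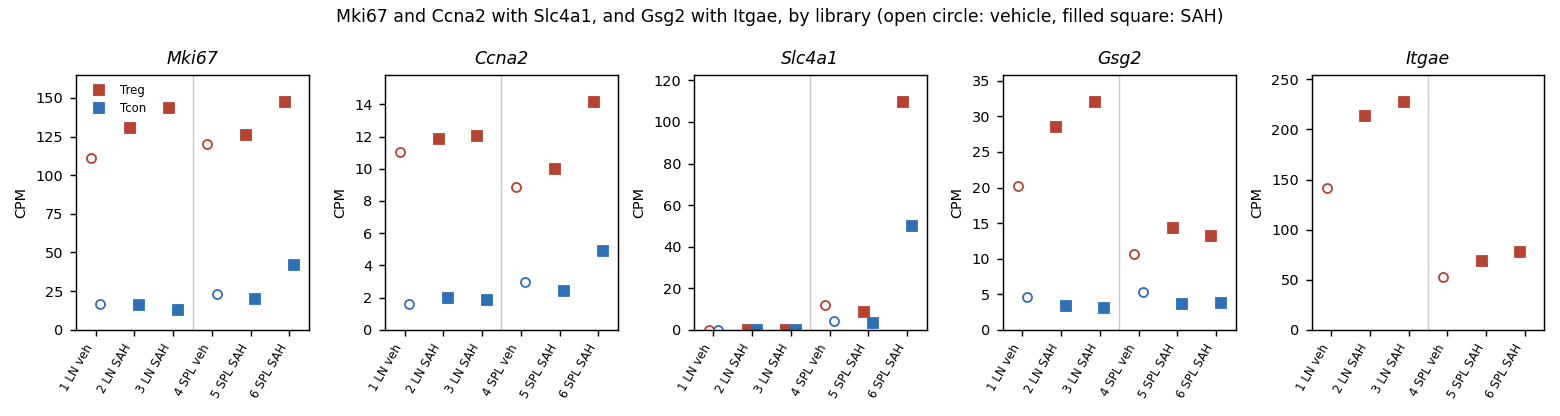
CPM by library of Mki67, Ccna2 and the red cell gene Slc4a1, and of Gsg2 with its host gene Itgae, in Treg (red) and Tcon (blue, not listed for Itgae); open circles are vehicle, filled squares SAH, and the grey line separates the organs. Library 6 holds the top value of Slc4a1 at 109.7 and 50.0 CPM and of Mki67 in both cell types, while Gsg2 and Itgae in Treg are both higher in lymph node than in spleen.

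Genes of the same pathways that are not members were counted from fixed lists. Of 35 other replication genes in the Treg table, 12 were called lower and 1 higher in spleen, against 14.7% of all genes (906 higher and 625 lower of 10405), with a median log2 difference of -0.11. Pole, the catalytic subunit of leading-strand polymerase, was lower by log2 -0.65, Timeless, of the fork protection complex, by -0.55, the chromatin assembly gene Chaf1a by -0.63, and the ligase gene Lig1 by -0.34. These 4 calls held in each of 6 fits without 1 library. In Tcon 0 of 33 such genes were called for organ by limma, with 4 at p below 0.05 before adjustment, against 4.73% and 17.4% of all genes. The interaction called 3 of 33, against 1.46% of all genes, all with a lower value in Treg: Pole, Chaf1a and Lig1. Those calls held in 8, 2 and 5 of 12 fits without 1 library. Pole was lost without Treg library 1, 2, 3 or 4. Lig1 was lost without any of Treg libraries 1 to 5 or Tcon library 1 or 4. Chaf1a held only without Treg library 5 or Tcon library 2. With the library number as a block the interaction called 7 of 33, against 7.19% of all genes. The organ difference was lower in Treg than in Tcon for those 3, Asf1b, Clspn and Timeless, and higher for Dbf4.

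Of 35 other mitosis genes in the Treg table, 3 were called lower and 1 higher in spleen, with a median of -0.07. These 4 calls are a share near the 14.7% of all genes. In Tcon 1 of 19 was called, a share near the 4.73% of all genes. It was Racgap1, of the cytokinesis machinery, which was higher in spleen by log2 0.61 and held in each of 6 fits without 1 library. The interaction called 2 of 19, against 1.46% of all genes, both with a lower value in Treg: Racgap1 (-0.59), only without Treg library 1 or 4 or Tcon library 2 or 6, and the condensin gene Ncaph (-0.63), only without Treg library 1 or 4. With the block it called 3 of 19, against 7.19% of all genes, these and Bub3, all with a lower organ difference in Treg. After SAH, 0 of 35 other replication genes and 0 of 35 other mitosis genes were called in Treg, against 0.202% of all genes. Their median log2 differences were 0.04 and 0.10, and 2 replication and 8 mitosis genes had p below 0.05 before adjustment, against 7.04% of all genes. In Tcon 2 of 33 other replication genes rose, the histone mRNA binding gene Slbp by log2 0.35 and Dtl, which marks Cdt1 for destruction, by 0.40, against 1.04% of all genes, and 0 of 19 mitosis genes were called, with 2 at p below 0.05 before adjustment, against 14.1%. The Slbp call held only without library 2 or 5 and the Dtl call only without library 2.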

How the data were processed

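The 58 members and all other gene lists were chosen with earlier results of these data known. Members always named were Mki67, Top2a, Rrm2, Mcm5, Pcna, Ccna2, Ccnb1, Ccne1, Ccnd2, Ccnd3, Cdk1, E2f1, Foxm1, Birc5, Ube2c, Stmn1, Hmgb2 and Uhrf1, with every called member, the 4 largest rises and falls per comparison, and the most and least abundant member.

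Per the submitters' processing notes, reads were processed with TopHat, Bowtie and edgeR on mm10, with no versions; the sources used here give neither the annotation nor the strand setting. For each cell type the authors deposited 1 table with a normalized signal per gene and library, which its header calls CPM. Column totals ran from 971928 to 1.02143e+06. Per the file headers, log2 columns hold the authors' own fold change and mean level, score columns hold their test statistic and call, and p-value columns hold p and a false discovery rate. The authors' comparison is used only where it is named.

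From the signal, limma 3.58.1 in R 4.3.3 (intensity trend, two-sided) was fitted to log2(CPM + 1) over all genes of a table, with organ and treatment as terms and 3 residual degrees of freedom, or to all 12 libraries for differences between cell types (6 residual degrees of freedom). Fold changes are on that scale and understate changes of low genes. P-values were adjusted by Benjamini-Hochberg over all genes tested and called below 0.05. The procedure was tested on simulated data. Depth came from the steps of low values, of which 100% lay within 0.1 of a whole read. Positions are from GENCODE on mm10: 28 members overlap another annotated gene, 16 of them a protein-coding one. Cdt1, Gins2, Cdc45, Mcm7, Tk1, Ccnd3, Foxm1, Ccna2 and Ube2c are among the 16. How reads in such overlaps were counted is not given in the sources used here. Window sequences are from RefSeq.

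Residuals of same-numbered Treg and Tcon libraries correlated across 9784 genes at 0.29, 0.44, 0.40, 0.29, 0.52 and 0.54 for libraries 1 to 6, each highest with its own number; libraries 1 and 4 mirror each other in this fit. The numbers were therefore taken to pair the libraries, and a fit with this block is given where it changed a call or a count. Alternatives were pseudocounts of 0.1 and 2, a mean of at least 5 CPM, rescaled libraries, 1 symbol per set of identical values, no organ term, the block, and each library left out.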

Additional observations from a re-analysis of the deposited data

Results flagged for a closer look

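The organ difference, spleen minus lymph node, differed between Treg and Tcon for 8 members by the interaction test in limma over all genes. This test did not use the library number as a block. On the log2 scale, Treg minus Tcon was -1.17 for Gsg2, -0.81 for Stmn1, -0.74 for E2f1, -0.69 for Kif11, -0.65 for Uhrf1, -0.40 for Mcm5, -0.39 for E2f2 and -0.38 for Ncapd2. Groups of 3 libraries were too small for a test of single libraries that lie far from the others.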

How the results depend on the processing

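With 1 read worth at most 0.0267 CPM, a gene at 1 CPM rests on fewer reads than genes at higher CPM. Each organ has 1 vehicle library per cell type. Changes of pseudocount, filter, rescaling and identical symbols kept every count of called members within 1.5 times, except that a pseudocount of 2 called 1 member for the SAH effect between cell types (0 otherwise). Without the organ term, 0 members were called for SAH in Tcon. With the library number as a replicate block, 1 member was called for the SAH effect between cell types and 21 for the organ difference between cell types (8 without the block); the block was run for these comparisons alone. Its calls in the other gene lists, a fit added after seeing the data, are given beside those lists. Further alternatives were chosen after seeing the data: without spleen SAH library 6 of either cell type, the organ difference between cell types had 5 calls, and with the block as well 16, while the SAH effect between cell types had 2 with the block.

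With 1 library left out at a time, calls ranged from 0 to 2 for SAH in Treg, 0 to 2 for SAH in Tcon, 9 to 20 for organ in Treg, 1 to 4 for organ in Tcon, 0 to 1 for SAH between organs in Tcon, 0 to 1 for SAH between cell types, and 3 to 11 for organ between cell types. The members' median ranged from 0.021 to 0.147 for SAH in Treg, from 0.00028 to 0.04 for SAH in Tcon and from 0.0604 to 0.132 for organ in Tcon. A lone vehicle or SAH library left by this is assumed to vary like the others. Calls over all genes ranged in these fits from 768 to 1830 for organ in Treg and from 215 to 628 for organ in Tcon. No called value of a named member changed sign. Count tests with edgeR and DESeq2, listed as alternatives, were not run.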

Other observations

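Genes that hold the cycle back were counted as well. Of 23 genes of CDK inhibitors, pocket proteins and quiescence in the Treg table, limma called 5 higher and 1 lower in spleen, against 14.7% of all genes (906 higher and 625 lower). Cdkn1a, which encodes the CDK inhibitor p21, was higher by log2 0.88 and Cdkn1b, which encodes p27, by 0.36, in each of 6 fits without 1 library. Cdkn2c was higher by 0.42, but not without library 1, 3 or 4, and Tob1 and Btg2, both antiproliferative genes, were higher by 0.22 each, but not without library 1, 2 or 4. The 1 lower gene was E2f7, a repressor of the E2F targets, at -0.47, a call that held only without library 5. In Tcon 1 of 21 was called higher and 1 lower in spleen, against 4.73% of all genes. Cdkn1a was higher by 0.54, a call lost without library 3 or 5, and E2f6, another E2F repressor, was lower at -0.29 (limma adjusted p = 0.044), a call that held in none of 6 fits without 1 library. A separate list held CDK partners, phosphatases and regulators of the anaphase-promoting complex. In Treg 1 of 14 was called higher and 1 lower in spleen, against 14.7% of all genes. In Tcon 1 of 13 was called higher, against 4.73%. Cdc25b, the phosphatase that activates CDK1, was higher in spleen by 0.51 in Treg and 0.84 in Tcon in every fit without 1 library. Cdk4 was lower in spleen Treg by -0.33.

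Genes of DNA repair in S phase were called lower in spleen Treg for 4 of 14, against 14.7% of all genes, with a median log2 difference of -0.30. Fanci, of the Fanconi anemia pathway, differed by -0.59 and Brca2 by -0.38 in each of 6 fits without 1 library. Rad51ap1 (-0.58) was lost without library 1, 2 or 4, and Brca1 (-0.28) held only without library 5. In Tcon Fanci was lower in spleen by -0.39, lost without library 1, 3 or 4. After SAH, 2 of 21 genes of the CDK inhibitor list were called in Tcon, against 1.04% of all genes, Cdkn1a higher by 0.59 and Tob1 by 0.45. The Cdkn1a call held only without library 2, and the Tob1 call only without library 2 or 5. The interaction of organ with cell type called 0 of 21 genes of the CDK inhibitor list and 0 of 9 repair genes in limma, with 5 and 2 at p below 0.05 before adjustment, against 1.46% and 12.2% of all genes. With the library number as a block it called 2 of 21, Cdkn1b and Tob1. Both had a higher organ difference in Treg than in Tcon. The block fit called 0 of 9 repair genes. Of 13 CDK partners, phosphatases and regulators of the anaphase-promoting complex it called Cdc25b and Cdk4, whose organ difference was lower in Treg. Over all genes this fit called 7.19%. For the SAH effect between cell types the block called Tob1 alone among these lists, against 0.777% of all genes. Its SAH effect was lower in Treg than in Tcon.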
